A study of Mus musculus with 18 samples.

Results

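Gene expression in lumbar spinal motor neurons of young adult mice was compared between 90 and 60 days of age. The comparison takes the 3 arrays of Control 90 days and the 3 arrays of Control 60 days, chosen by their sample titles, out of 18 arrays in all. Control animals were non-transgenic littermates from a colony of SOD1 G93A mice, which carry a mutant human superoxide dismutase gene and model familial amyotrophic lateral sclerosis. The controls carried no transgene, and the labels name neither the strain nor the promoter of the transgene. From each animal 1000 motor neurons were cut by laser out of toluidine blue stained, 10 µm frozen sections of the lumbar cord, and the RNA went to 1 array. G93A animals of 90 and 60 days, with 3 arrays each, are set beside the controls, and the 3 G93A and 3 control animals of 120 days enter the estimate of the spread and the last comparison of levels. The labels number the animals, and the numbers of the 90-day and 60-day controls fall in separate ranges, so age and cohort cannot be told apart.

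Spinal motor neurons are among the largest neurons of the body, and each supports an axon that reaches from the cord to a muscle. Their synthesis of RNA and protein is high, their long axons depend on neurofilaments, microtubules and motor proteins, and their proteins are cleared by the proteasome, chaperones and lysosomes. In the mouse the wiring of the cord is complete before these ages, so both groups are adults whose circuits are formed.

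The captured cells had high signals of neurofilament genes in every array. Nefl, the light neurofilament subunit, had signals of 24118.7, 9263.9 and 24855.7 in Control 90 days, against 22030.1, 25381.9 and 17125.3 in Control 60 days, which overlap. Nefh, the heavy subunit, had 2922.3, 1882.4 and 1308.9 in Control 90 days, against 1357.1, 1323.8 and 915.7 in Control 60 days. Isl1, a transcription factor of motor neurons, had 85.3, 82.3 and 42.6 in Control 90 days, against 35.2, 55.5 and 15.1 in Control 60 days. All 3 genes overlapped between the ages and none passed the test across all genes. The vesicular acetylcholine transporter Slc18a3 had signals of 53.2, 26.7 and 36.9 in Control 90 days, against 12.7, 49.8 and 8.3 in Control 60 days, and did not pass the filter on low signals. Slc5a7, the choline transporter of cholinergic neurons, also did not pass it, and Chat was not analysed here. RNA of other cells was in the captures too: Mbp, the myelin basic protein of oligodendrocytes, had signals of 5729.5, 5656.4 and 3113.2 in Control 90 days, against 6253, 4285.7 and 5810.8 in Control 60 days. The 90-day and 60-day values of Mbp overlap. In such bulk samples fewer cells of a type and less RNA per cell cannot be told apart.

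Several measures of the arrays themselves lay lower in Control 90 days. The mean log2 level of the hybridization controls, bacterial and phage RNAs added to every sample, was 9.83 ± 1.27 in Control 90 days and 11.15 ± 0.40 in Control 60 days (SD, n = 3 each; exact permutation p = 0.2, two-sided). Control 90 days replicate 2 had the lowest of these levels, 8.40. The level of 18S ribosomal RNA was 9.65 ± 0.56 in Control 90 days and 10.67 ± 0.46 in Control 60 days (exact permutation p = 0.2), and the median signal was 52.9 ± 6.6 in Control 90 days and 61.5 ± 3.1 in Control 60 days (exact permutation p = 0.1, the smallest that 3 against 3 arrays allow). The difference between the 3' and the 5' probe set of Gapdh, a measure of how complete the amplified RNA was, averaged 3.25 in Control 90 days and 3.36 in Control 60 days on the log2 scale (exact permutation p = 0.9). For beta-actin this difference averaged 5.07 ± 0.39 in Control 90 days and 6.28 ± 1.43 in Control 60 days (exact permutation p = 0.3). Adjusted over the 6 array measures compared, p was 0.36 for these measures except Gapdh, where it was 0.9. Correlations between arrays across probe sets ran between 0.678 and 0.742 within Control 90 days, between 0.641 and 0.690 within Control 60 days, and between 0.582 and 0.722 across them.

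Between 60 and 90 days far more genes rose than fell. With a linear model across all 18 arrays (limma), 266 of 16565 tested probe sets differed at an adjusted p below 0.05 (1.61%), 225 of them higher at 90 days (1.36%) and 41 lower (0.248%). Counted by gene, with 1 probe set for each, 132 of 10051 genes rose (1.31%) and 21 fell (0.209%). The genes that rose included genes of protein turnover, energy supply and transport. Those that fell included the smooth muscle actin Acta2, the tropomyosin Tpm2, the microtubule protein tau and a semaphorin. All 153 changed by at least 2-fold. The median fold of those that rose was 4.21, and the median fold of those that fell was 5.13.

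The background of these counts is a small shift of all genes the other way. The median log2 difference of all 10051 genes was -0.085, and 45.8% of them lay above 0. When each array was centred on its median, that median became 0.139, so differences are read here against all genes as well as against 0. Without adjustment 2454 probe sets had a p below 0.05, where chance alone gives about 828, and these were almost even, 1319 higher and 1135 lower. Groups did not overlap for 873 genes that lay higher at 90 days (8.69%) and for 1033 that lay lower (10.3%). The genes that passed were thus unequal in direction while the wider set was not.

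**Figure D1:**
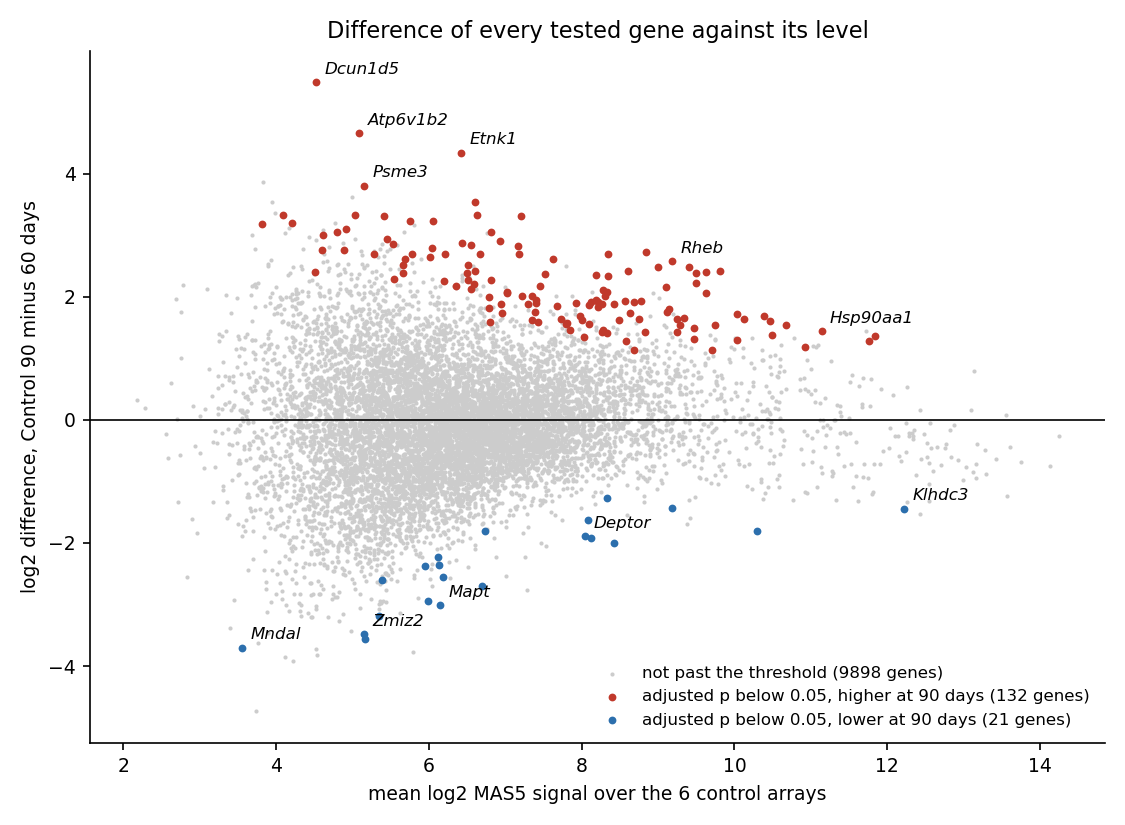
Log2 difference of Control 90 minus 60 days (vertical axis) against the mean log2 MAS5 signal over the 6 control arrays (horizontal axis) for each tested gene, 1 point per gene. The 132 genes that rose and the 21 that fell lie at the edges of the cloud at every level of signal, and the points of low signal scatter most.

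The count of changed probe sets depended on single arrays, on array measures used as covariates and on how the spread was estimated. With the 18S level as a covariate, an alternative chosen after seeing the data, the count was 13. With the hybridization-control level it was 32, without the variance trend 28 and with the 9 control arrays only 51. It fell to 26 without Control 90 days replicate 1, to 80 without Control 90 days replicate 2, to 78 without Control 60 days replicate 3 and to 153 without G93A 90 days replicate 3, an array that enters only the estimate of the spread. None of the 266 changed sign in the 31 alternatives that were run, although 17 were not tested where the filter used only the groups compared. Much of this was fixed in advance. Leaving out an array of another group, or changing the filter or the variance trend, cannot move a difference. Groups did not overlap for 217 of the 225 and 40 of the 41 probe sets. For these the loss of 1 compared array cannot turn the sign. The threshold was passed in every alternative by 10 of the 266, among them 5 of the 132 and 0 of the 21 genes. Of the genes described here as changed, Phkb kept the call in 6 of 30 alternatives, and Hspa1b in 9, Mrpl11 and Mrps14 in 10, Pdhb, Sycp1 and Ctc1 in 11, Slc12a5 in 13, Ndufa1 in 14 and Os9 and Dnajb9 in 15 of 31. The 5 genes that passed in every alternative are described first.

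Dcun1d5 had the largest difference of all genes tested. Its product belongs to a family of proteins that help attach NEDD8, a relative of ubiquitin, to cullin ubiquitin ligases. Signals were 221.2, 167 and 98.2 in Control 90 days, against 2.4, 8 and 2.1 in Control 60 days, so every 90-day array lay far above every 60-day array. The log2 difference was 5.49 ± 0.75 (SE, n = 3 each; limma adjusted p = 0.000613), a fold of 44.8. The 60-day signals are at the low end of the scale, where a fold is least certain, and the difference was 3.09 when 16 was added to every signal. The only other tested probe set of the gene differed in the opposite direction.

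Etnk1, the ethanolamine kinase that starts the synthesis of phosphatidylethanolamine, had signals of 282.3, 743.1 and 275.5 in Control 90 days, against 25.9, 7.4 and 36.2 in Control 60 days. The groups lay well apart, and the log2 difference was 4.34 ± 0.61 (SE; limma adjusted p = 0.000613). Of its 2 other tested probe sets 1 differed in the opposite direction. The remaining 3 genes also had no overlap between the ages. Emc7 encodes a subunit of the complex that inserts proteins into the membrane of the endoplasmic reticulum. It had 259, 298.6 and 207.7 in Control 90 days, against 34.5, 33.3 and 37.7 in Control 60 days, with a log2 difference of 2.84 ± 0.40 (SE; limma adjusted p = 0.000613). Its only other tested probe set differed in the opposite direction. Eef1b2, a subunit of the exchange factor that reloads elongation factor 1A with GTP, had 769, 1255.8 and 764 in Control 90 days, against 231.5, 187.8 and 111.9 in Control 60 days, with a log2 difference of 2.41 ± 0.36 (SE; limma adjusted p = 0.00126). 2410004B18Rik, whose role is not known with certainty, had 1644.1, 1448.2 and 697.1 in Control 90 days, against 206.5, 198.8 and 141.1 in Control 60 days, with a log2 difference of 2.72 ± 0.38 (SE; limma adjusted p = 0.000613).

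Promoter windows from RefSeq are printed for a pair of genes that rose, Dcun1d5 and Etnk1, and a pair that fell, Sema4g and Acta2, to show how the sequences at their starts differ. Each window runs from 250 bases before to 50 bases after a start site on the assembly GRCm38.p6, 5′ to 3′ on the strand of the gene. Capitals mark matches on either strand to 6 motifs: TGACG, which is the core of the cAMP response element, CACGTG, which is one form of the E-box, CAGCTG, which is another form of it, CCAAT, which is bound by factor NF-Y, TATAAA, which is known as the TATA box, and GGGCGG, which is known as the GC box. No 2 motifs overlap in the windows shown. For Dcun1d5 (rose), on the plus strand at chr9:7176340-7176639, the more upstream of 2 start sites in the table is shown. Etnk1 (rose) lies on the plus strand at chr6:143166980-143167279. Sema4g (fell) lies on the plus strand at chr19:44989094-44989393. Acta2 (fell) lies on the minus strand at chr19:34255324-34255623.
Dcun1d5: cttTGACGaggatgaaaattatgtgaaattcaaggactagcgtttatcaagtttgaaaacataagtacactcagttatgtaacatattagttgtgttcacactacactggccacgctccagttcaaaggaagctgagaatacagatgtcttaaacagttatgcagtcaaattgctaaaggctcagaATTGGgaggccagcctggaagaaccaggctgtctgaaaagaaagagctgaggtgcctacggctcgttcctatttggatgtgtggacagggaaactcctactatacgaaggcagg
Etnk1: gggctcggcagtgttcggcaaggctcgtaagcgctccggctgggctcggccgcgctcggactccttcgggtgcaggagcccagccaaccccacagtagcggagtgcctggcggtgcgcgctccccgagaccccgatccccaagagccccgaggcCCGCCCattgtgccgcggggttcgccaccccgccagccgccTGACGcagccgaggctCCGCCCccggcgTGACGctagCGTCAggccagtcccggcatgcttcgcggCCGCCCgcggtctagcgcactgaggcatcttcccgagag
Sema4g: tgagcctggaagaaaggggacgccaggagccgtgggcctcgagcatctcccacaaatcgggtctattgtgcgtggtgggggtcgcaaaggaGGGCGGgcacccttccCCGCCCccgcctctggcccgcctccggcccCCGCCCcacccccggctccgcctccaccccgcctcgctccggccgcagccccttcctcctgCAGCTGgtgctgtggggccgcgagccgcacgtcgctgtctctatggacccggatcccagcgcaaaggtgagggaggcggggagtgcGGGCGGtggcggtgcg
Acta2: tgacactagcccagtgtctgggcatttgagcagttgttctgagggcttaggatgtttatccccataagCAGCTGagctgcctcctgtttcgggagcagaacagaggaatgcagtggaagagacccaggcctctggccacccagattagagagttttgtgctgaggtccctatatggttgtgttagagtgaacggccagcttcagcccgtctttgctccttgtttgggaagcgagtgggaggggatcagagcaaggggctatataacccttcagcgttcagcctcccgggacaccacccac
The windows differ in their matches: Etnk1 holds 6, in GC boxes and cores of the cAMP response element, Sema4g holds 5, Dcun1d5 holds 2 and Acta2 holds 1. Promoters were in the table for 111 of the 132 genes that rose, with 147 windows, and for 14 of the 21 that fell, with 17 windows. The GC box was in 72.8% of the windows of genes that rose, in 47.1% of those of genes that fell, in 58.3% of the windows of all tested genes and in 35.7% of all promoters in the table. TGACG was in 34.0% of the windows of genes that rose, in 29.4% of those of genes that fell and in 28.9% of those of all tested genes. TATAAA was in 8.16% of the windows of genes that rose, in 5.88% of those of genes that fell and in 8.83% of those of all tested genes. For genes that rose and all tested genes the shares were 11.6% against 9.24% for CACGTG, 19.0% against 15.5% for CAGCTG and 38.8% against 36.9% for CCAAT. A match is a run of letters and not a bound site.

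The remaining 10 of the 15 genes with the smallest p among those that rose without overlap included a receptor, a proton pump and an inhibitor of transcription factors. Selenoh, a selenoprotein of the nucleus, had 109.5, 130.1 and 68.2 in Control 90 days, against 20.5, 13.8 and 12.6 in Control 60 days (log2 difference 2.70 ± 0.44, SE; limma adjusted p = 0.00369). Ephb3, a receptor tyrosine kinase that binds ephrin-B ligands on neighbouring cells, had 124.6, 108.5 and 202.2 in Control 90 days, against 19.8, 24 and 21.4 in Control 60 days (log2 difference 2.69 ± 0.45, SE; limma adjusted p = 0.00426). Both genes were steady at 60 days and several-fold higher on each 90-day array. Atp6v1b2, the B2 subunit of the proton pump that acidifies lysosomes and synaptic vesicles, had 106.5, 273.6 and 171.4 in Control 90 days, against 3.9, 10.6 and 7.5 in Control 60 days (log2 difference 4.66 ± 0.80, SE; limma adjusted p = 0.00426). Id2, which binds basic helix-loop-helix transcription factors and keeps them from DNA, had 158.1, 193.5 and 78.4 in Control 90 days, against 7, 42.6 and 8.2 in Control 60 days (log2 difference 3.31 ± 0.56, SE; limma adjusted p = 0.00426), and its only other tested probe set differed in the opposite direction. For both genes the 60-day signals were low and uneven, so the size of the fold is loosely set.

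The other 6 of the 10 followed. Ndn, which encodes necdin, a protein of neurons that have left the cell cycle, had 2641.3, 1526.7 and 1022.2 in Control 90 days, against 202, 677.3 and 174.3 in Control 60 days (log2 difference 2.48 ± 0.42, SE). Tsc22d1, a leucine zipper protein, had 1972, 1583.4 and 1239.7 in Control 90 days, against 383.2, 399.2 and 246.1 in Control 60 days (log2 difference 2.23 ± 0.39, SE), and all 5 of its other tested probe sets differed in the same direction. Atp5c1, the gamma subunit that turns inside mitochondrial ATP synthase, had 3157.3, 2373.8 and 796.7 in Control 90 days, against 381.9, 371.9 and 288.4 in Control 60 days (log2 difference 2.40 ± 0.44, SE). The remaining 3 were Oga, the enzyme that removes O-linked N-acetylglucosamine from proteins, Crbn, a substrate receptor of a cullin ubiquitin ligase, and Dhcr7, the enzyme of the last step of cholesterol synthesis, with log2 differences of 2.70, 1.92 and 2.91. Dhcr7 had 454, 267.4 and 307.9 in Control 90 days, against 42.9, 152.8 and 13.5 in Control 60 days, so its 60-day signals were low and uneven. Limma adjusted p lay between 0.00426 and 0.00749 for these 6 genes. Of the 4 other tested probe sets of Oga, 3 differed in the opposite direction.

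**Figure D2:**
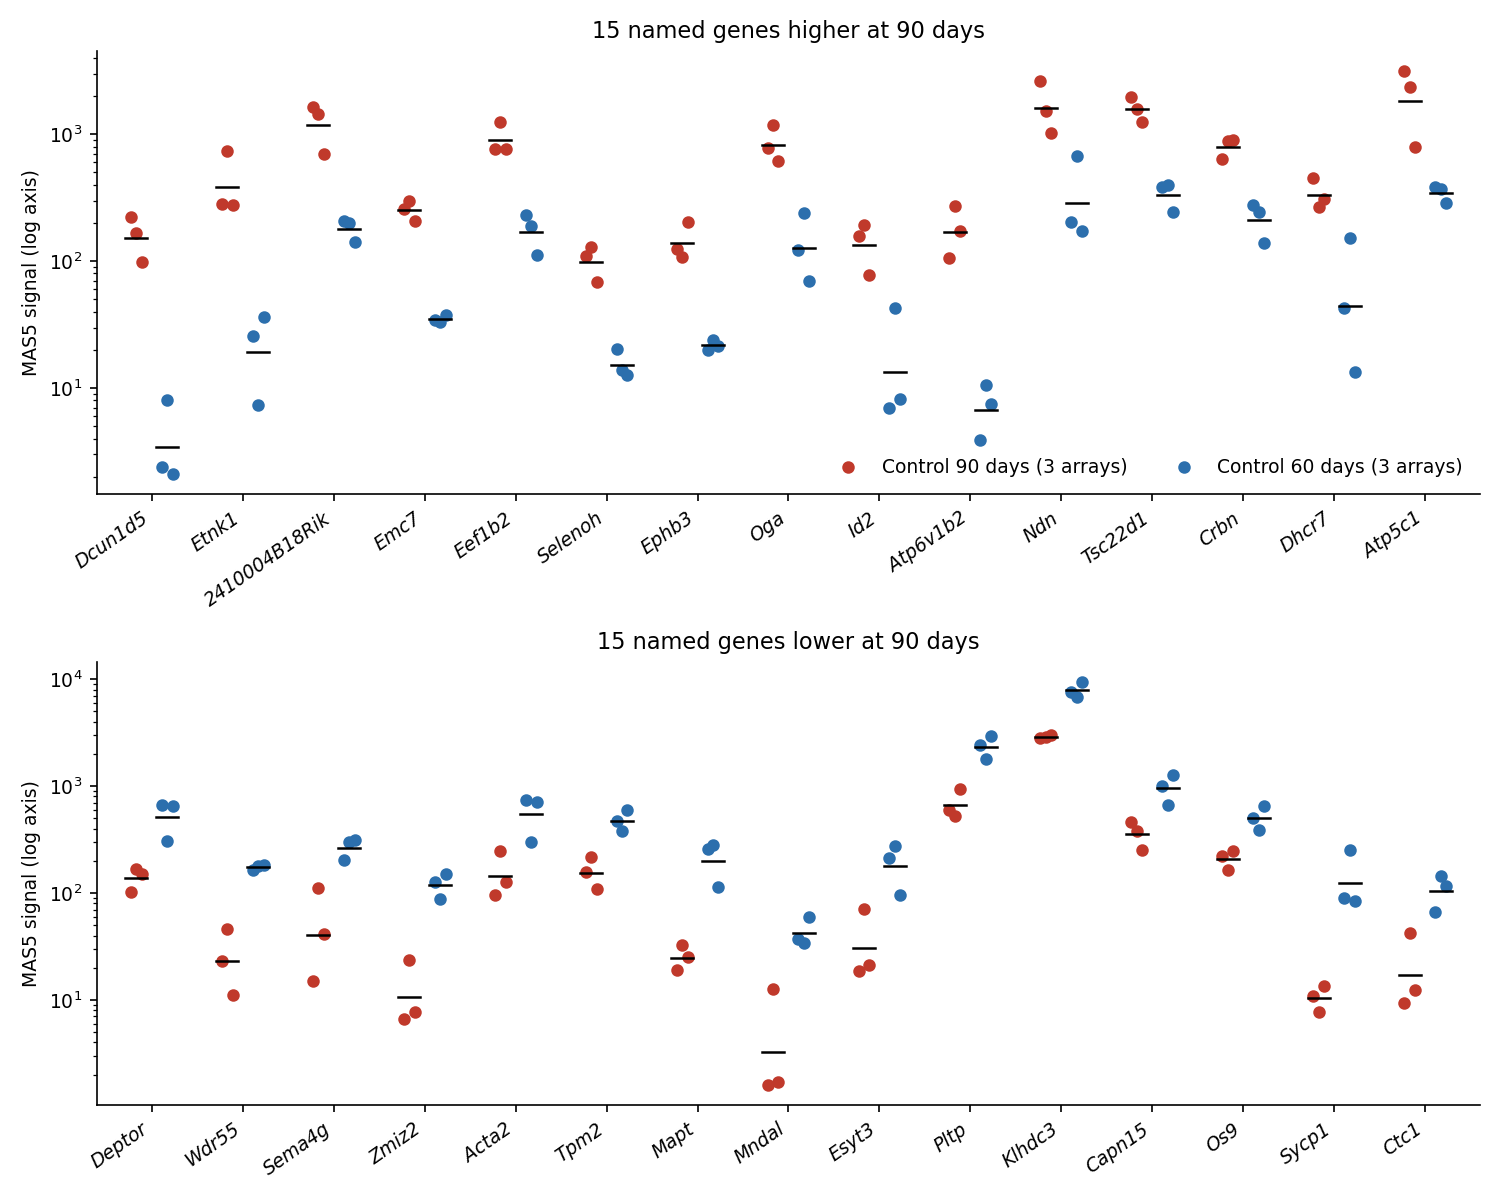
MAS5 signal on a log axis for 15 genes that rose (upper panel) and 15 that fell (lower panel), with Control 90 days in red on the left of each pair and Control 60 days in blue on the right. Points are the 3 arrays of each age and bars are geometric means, and no pair of groups shown overlaps.

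By count, chaperones, with 5 genes, and the proteasome and ubiquitin lists, with 4 each, held the most genes that rose among the 40 lists. The lists differ in size. By share, the TCA cycle and pyruvate oxidation list (12.5%) and the list of intermediate filaments and axonal growth (11.1%) came first. The proteasome list and the helix-loop-helix and hedgehog list followed with 10.5% each, then chaperones with 8.77%. Ubiquitin enzymes had 6.45%. Of 38 tested proteasome genes 4 rose (10.5%, beside 1.31% of all genes) and 0 fell, 29 lay above 0, and the median log2 difference was 0.713, beside -0.085 for all genes. Psme3, the gamma subunit of the proteasome activator PA28, had 121.7, 131 and 148.9 in Control 90 days, against 21.4, 9 and 4.5 in Control 60 days, without overlap. Its log2 difference was 3.81 ± 0.78 (SE; limma adjusted p = 0.0150), and its only other tested probe set differed in the opposite direction. Psmd14, the deubiquitinase of the proteasome lid, had 899.3, 1484 and 903.8 in Control 90 days, against 417.5, 361.2 and 327.9 in Control 60 days, and rose by 1.54 ± 0.36 (log2, SE; limma adjusted p = 0.0313). Psmc6, an ATPase of the base, and Psmb4, a subunit of the catalytic core, rose by 1.55 and 2.00 on the log2 scale. The 4 thus come from the activator, the lid, the base and the core. Over the alternatives the number of proteasome genes past the threshold ran from 0 to 8 and the median of the list from 0.545 to 0.937. Its summed signal ran from 18307.5 to 18691.5 in Control 90 days and from 15618.5 to 18487.6 in Control 60 days, which overlap.

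Enzymes that attach or remove ubiquitin and its relatives gave 4 of 62 genes that rose (6.45%) and 0 that fell. Beside Dcun1d5 these were Uba3, a subunit of the enzyme that activates NEDD8, Ube2d3, a ubiquitin-conjugating enzyme, and Usp9x, a deubiquitinase. Uba3 had 460.6, 585.5 and 714.4 in Control 90 days, against 226.3, 183.2 and 85.4 in Control 60 days (log2 difference 1.92 ± 0.39, SE; limma adjusted p = 0.0153). Uba3 and Dcun1d5 both act on NEDD8. The median of the list was 0.209 (0.05 to 0.434 over the alternatives), and 38 of its 62 genes lay above 0. Its summed signal ran from 11278.8 to 13120 in Control 90 days and from 8573.4 to 10005.1 in Control 60 days, without overlap. Ubqln2, which carries ubiquitinated proteins to the proteasome and is mutated in some families with amyotrophic lateral sclerosis, was singled out after its values were seen. It had 617.6, 515 and 164.7 in Control 90 days, against 101.2, 100.5 and 56 in Control 60 days (log2 difference 2.17 ± 0.55, SE; limma adjusted p = 0.0427), with 1 other tested probe set of opposite direction.

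Chaperones gave 5 of 57 genes that rose (8.77%) and 0 that fell, with a median log2 difference of 0.474 (0.148 to 0.699 over the alternatives) and 41 genes above 0. Their summed signal ran from 27658.4 to 28974.9 in Control 90 days and from 21628.7 to 24475.2 in Control 60 days, without overlap. Hsp90aa1, the inducible form of the cytosolic chaperone HSP90, had 4008.2, 3620.8 and 3536.7 in Control 90 days, against 1592.3, 1704.8 and 953.2 in Control 60 days. Each 90-day value was more than the highest 60-day value, and the log2 difference was 1.44 ± 0.31 (SE; limma adjusted p = 0.0224). Cct5, a subunit of the chaperonin that folds actin and tubulin, had 555.3, 901.4 and 564.5 in Control 90 days, against 224.8, 147.5 and 171.1 in Control 60 days (log2 difference 1.88 ± 0.41, SE; limma adjusted p = 0.0212). Dnajb1 and Dnajb9, which hand substrates to HSP70 in the cytosol and to its relative in the endoplasmic reticulum, rose by 1.65 and 1.88. Hspa1b, a stress-inducible HSP70, rose by 1.75, although its 2 groups overlapped and 22 of 31 alternatives ended the call (limma adjusted p = 0.0472, up to 0.28), with 478.8, 394.6 and 154.4 in Control 90 days, against 156.5, 113.4 and 42.9 in Control 60 days. The list of the endoplasmic reticulum gave 2 of 33 genes that rose (6.06%): Dnajb9 again, and Derl1, a protein of the channel through which misfolded proteins leave the reticulum, which rose by 1.38 ± 0.31 (log2, SE; limma adjusted p = 0.0266).

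Lysosomal genes rose singly. Atp6v1b2 was the 1 of 17 genes of the vacuolar proton pump that rose (5.88%), while the median of that list was 0.514 (0.183 to 0.739 over the alternatives) and 13 of its genes lay above 0. Atp6v1g2, another subunit, went the other way, with 12.7, 8.2 and 43.3 in Control 90 days, against 95, 75.9 and 78 in Control 60 days, and did not pass the test (log2 difference -2.32 ± 0.64, SE; limma adjusted p = 0.0665). Ctsd, the aspartic protease of the lysosome, had 282.1, 325.2 and 383.6 in Control 90 days, against 109.6, 134.8 and 45.6 in Control 60 days, and rose by 1.90 ± 0.37 (log2, SE; limma adjusted p = 0.0111). It was the 1 gene of 33 on the lysosome and autophagy list that rose (3.03%).

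Genes of energy metabolism formed the next group. The TCA cycle and pyruvate oxidation list gave 3 of 24 genes that rose (12.5%) and 0 that fell, with a median of 0.427 (0.215 to 0.651 over the alternatives) and 19 genes above 0. Its summed signal ran from 19050.5 to 20564 in Control 90 days and from 19639.3 to 21270.3 in Control 60 days, which overlap. Mdh1, the cytosolic malate dehydrogenase that carries reducing power toward mitochondria, had 574.1, 652.5 and 311.1 in Control 90 days, against 141.8, 36.2 and 99 in Control 60 days (log2 difference 2.61 ± 0.51, SE; limma adjusted p = 0.0111), and both of its other tested probe sets differed in the same direction. Dlst, a core enzyme of the 2-oxoglutarate dehydrogenase complex, had 145, 128.3 and 95.8 in Control 90 days, against 17.5, 13.7 and 16.3 in Control 60 days (log2 difference 2.94 ± 0.66, SE; limma adjusted p = 0.0249). Pdhb, a subunit of pyruvate dehydrogenase, rose by 1.14 ± 0.29 (log2, SE; limma adjusted p = 0.0453). Idh3g, a subunit of isocitrate dehydrogenase, lay lower, with 2815.3, 2189.4 and 2070.7 in Control 90 days, against 4656.3, 3865.6 and 8755 in Control 60 days, and did not pass the test (limma adjusted p = 0.0599).

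The respiratory chain as a whole did not move one way. Of 70 tested genes 3 rose (4.29%) and 0 fell, and 41 lay above 0. Groups did not overlap for 11 of the 70 that lay higher, beside 8.69% of all genes, and for 14 that lay lower, beside 10.3%. The summed signal of the 70 was lower without overlap, 127569.1 to 186503.8 in Control 90 days, against 188732.5 to 193692.1 in Control 60 days. Beside Atp5c1 the 3 were Atp5h, a subunit of the stalk of ATP synthase, and Ndufa1, a subunit of complex I. Atp5h had 7154, 4279.7 and 6641.2 in Control 90 days, against 2771.1, 2413.3 and 1810.8 in Control 60 days (log2 difference 1.36 ± 0.32, SE; limma adjusted p = 0.0313). Ndufa1 rose by 1.28 ± 0.32 (log2, SE; limma adjusted p = 0.0427). Carriers of the inner membrane and a mitochondrial import protein were singled out after their values were seen. Slc25a5, which exchanges ATP for ADP, had 455.5, 469.8 and 143.5 in Control 90 days, against 59.7, 72.2 and 7.1 in Control 60 days, and rose by 3.32 ± 0.67 (log2, SE; limma adjusted p = 0.0130). Slc25a3, the phosphate carrier, and Grpel1, a cofactor of mitochondrial HSP70 in import, rose by 1.54 and 1.63. Sod2, the superoxide dismutase of mitochondria, was the 1 of 34 antioxidant genes that rose (2.94%), with 1104.4, 1220.8 and 1045.6 in Control 90 days, against 421.8, 606.7 and 359.2 in Control 60 days (log2 difference 1.31 ± 0.31, SE; limma adjusted p = 0.0304). The cytosolic Sod1 had 186.5, 207.4 and 232.5 in Control 90 days, against 173.5, 178.9 and 240.9 in Control 60 days, which overlap (limma adjusted p = 0.967). Glycolytic genes gave 0 of 16 past the threshold, and 3 had an unadjusted p below 0.05, beside 1524 of all 10051 genes.

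Genes of the axon and its transport gave few calls, and those on the lists described next were all higher at 90 days. Of 31 dynein, dynactin and kinesin genes 2 rose (6.45%) and 0 fell, and the median was 0.413. Groups did not overlap for 11 of the 31 that lay higher, beside 8.69% of all genes. For 1 that lay lower they did not overlap either, beside 10.3% of all genes. Dynlt3, a light chain of cytoplasmic dynein, had 520.2, 709.6 and 774.2 in Control 90 days, against 180.7, 326 and 36.8 in Control 60 days (log2 difference 2.35 ± 0.54, SE; limma adjusted p = 0.0302). Klc1, a light chain of kinesin-1, had 917.5, 994.8 and 415.6 in Control 90 days, against 303.5, 204 and 166.9 in Control 60 days (log2 difference 1.73 ± 0.41, SE; limma adjusted p = 0.0309), and its only other tested probe set differed in the opposite direction. Among 18 genes of intermediate filaments and axonal growth, Enah and Marcksl1, both regulators of actin at growing membranes, rose by 3.30 and 2.70 (2 of 18, 11.1%), and 2 of the 3 other probe sets of Marcksl1 and the 1 other of Enah differed in the opposite direction. Enah rose although its groups overlapped, with 377.4, 1250.3 and 214.3 in Control 90 days, against 248.4, 25.9 and 16.3 in Control 60 days. Prph, the peripherin filament of neurons with peripheral axons, had 399.8, 309.3 and 467.6 in Control 90 days, against 164.9, 146.9 and 162 in Control 60 days, with no overlap, but its difference of 1.29 ± 0.42 (log2, SE) did not pass (limma adjusted p = 0.133), and all 3 of its other tested probe sets differed in the opposite direction.

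Vesicle traffic and signalling genes followed. Of 75 small GTPases and traffic genes 3 rose (4%) and 0 fell, with 50 above 0 and a median of 0.287. Rheb, the GTPase that switches on the growth kinase mTORC1, had 2277.9, 2024.3 and 623.4 in Control 90 days, against 337, 249.6 and 162 in Control 60 days (log2 difference 2.57 ± 0.52, SE; limma adjusted p = 0.0128). Rab14, of endosomes, and Cdc42, an organizer of actin, rose by 1.65 and 1.35. Camk2g, a subunit of calcium and calmodulin dependent kinase II, rose by 1.43 (1 of 21 calcium genes, 4.76%). Ptch1, the hedgehog receptor, had 146.3, 276 and 110.5 in Control 90 days, against 6.5, 17 and 49.1 in Control 60 days (log2 difference 3.23 ± 0.67, SE; limma adjusted p = 0.0167), and with Id2 it made 2 of 19 genes of the helix-loop-helix and hedgehog list (10.5%). Slc12a5, the neuronal potassium and chloride exporter that sets the response to GABA and glycine, was singled out after its values were seen, with 2313.8, 2666.5 and 1259.7 in Control 90 days, against 865.4, 737.5 and 402 in Control 60 days (log2 difference 1.64 ± 0.42, SE; limma adjusted p = 0.0472).

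Translation, RNA and chromatin genes gave 1 to 3 calls a list, all higher at 90 days. Cytosolic ribosomal proteins gave 1 of 44 (2.27%), Rpl13a, with 497.4, 639.3 and 676.3 in Control 90 days, against 344.7, 190.9 and 228.4 in Control 60 days (log2 difference 1.28 ± 0.28, SE; limma adjusted p = 0.0216), and 2 of its 3 other tested probe sets differed in the opposite direction. Rps28, of the same list, lay lower with 3386.7, 3736.2 and 4350 in Control 90 days, against 8212.7, 8809.4 and 11757.3 in Control 60 days, and did not pass (limma adjusted p = 0.129). The summed signal of that list was lower without overlap, 38589.2 to 40931.4 in Control 90 days, against 45163.3 to 53665.9 in Control 60 days. Mitochondrial ribosomal proteins gave 3 of 66 (4.55%), Mrpl51, Mrpl11 and Mrps14, and translation factors gave Eef1b2 alone of 46 (2.17%). Ddx3x, an RNA helicase of translation, and Thoc7, of the complex that couples transcription to export, rose by 1.87 and 1.43 (2 of 35, 5.71%), and 28 of the genes on that list lay above 0 with a median of 0.430. Sf3b1, a splicing factor at the branch point, was the 1 of 72 splicing genes that rose (1.39%), a share close to that of all genes. Hmgn3, a nucleosome-binding protein, and Kdm3a, a histone demethylase, rose by 1.45 and 3.20 (2 of 56, 3.57%), on a list whose median was -0.193.

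Immediate early genes were split. Fos, a transcription factor gene switched on by neuronal activity, had 318.1, 310.6 and 153.3 in Control 90 days, against 135.6, 62.2 and 16 in Control 60 days (log2 difference 2.27 ± 0.53, SE; limma adjusted p = 0.0309). Ier3 rose by 1.88 ± 0.39 (log2, SE; limma adjusted p = 0.0155). Arc and Egr3, which are also switched on by activity, lay lower on every 90-day array and did not pass. Arc had 18.1, 3.1 and 5.3 in Control 90 days, against 28, 91.5 and 86.5 in Control 60 days (limma adjusted p = 0.149). The list gave 2 of 25 genes that rose (8%), with a median of -0.239. Synaptic vesicle genes gave 0 of 28, transmitter receptors 0 of 15 and voltage-gated channels 0 of 27. Neurotrophic factor and cytokine receptors gave 0 of 27, and the BCL2 family with caspases 0 of 25. In that order 6, 1, 5, 5 and 1 genes of these lists had an unadjusted p below 0.05, beside 1524 of all 10051 genes.

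**Figure D3:**
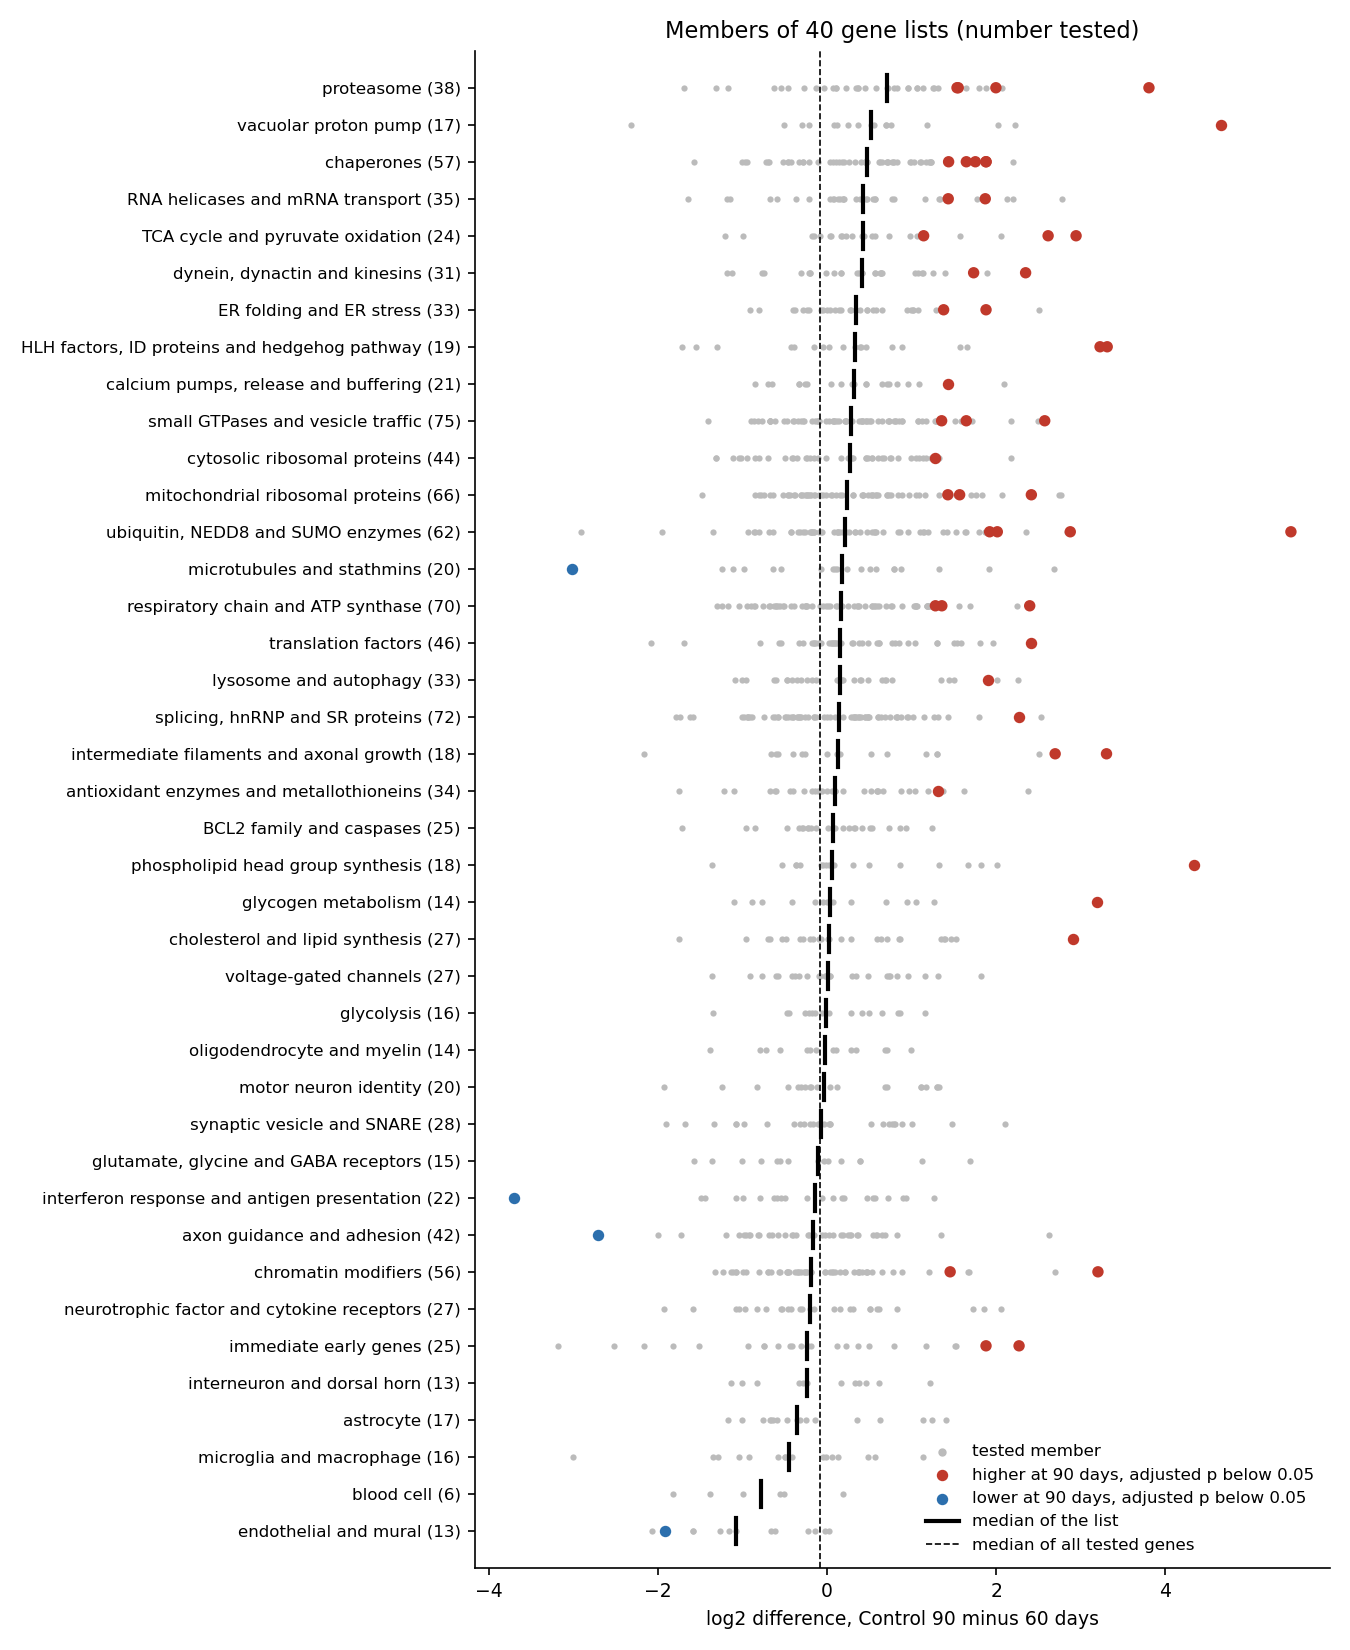
Log2 difference of Control 90 minus 60 days (horizontal axis) for every tested member of 40 gene lists, sorted by the median of the list, with the number tested in brackets. Grey points did not pass the threshold, red points rose and blue points fell, black bars are list medians from -1.079 (endothelial and mural) to 0.713 (proteasome), and the dashed line is the median of all genes at -0.085.

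The 21 genes that fell were fewer, and none of them passed in every alternative. Deptor, which binds and restrains the kinase mTOR, had 103.1, 167.2 and 150 in Control 90 days, against 664.2, 307.3 and 651.2 in Control 60 days. Each 90-day array lay below each 60-day array, and the log2 difference was -1.89 ± 0.34 (SE; limma adjusted p = 0.00749), with 1 of its 2 other tested probe sets in the opposite direction. Mapt, which encodes the microtubule protein tau, had 18.9, 32.6 and 25 in Control 90 days, against 258.3, 278.3 and 113.4 in Control 60 days, without overlap. It fell by 3.02 on the log2 scale (SE 0.64; limma adjusted p = 0.0185), and both of its other tested probe sets differed in the opposite direction, so the fall was seen with 1 of its 3 probe sets. It was the 1 of 20 microtubule and stathmin genes that fell (5%). Sema4g, a transmembrane semaphorin, had 15, 110.4 and 40.9 in Control 90 days, against 202.3, 299.7 and 310.6 in Control 60 days (log2 difference -2.71 ± 0.50, SE; limma adjusted p = 0.00789). It was the 1 of 42 axon guidance and adhesion genes that fell (2.38%, beside 0.209% of all genes).

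Klhdc3, a substrate receptor of a cullin ubiquitin ligase, had 2823.1, 2851.7 and 3002.2 in Control 90 days, against 7623.4, 6766.1 and 9460.7 in Control 60 days. The 90-day arrays lay close together and below every 60-day array, and the log2 difference was -1.45 ± 0.34 (SE; limma adjusted p = 0.0323), with 1 of 3 other tested probe sets in the opposite direction. Pltp, which moves phospholipids between lipoproteins, had 600.5, 528.6 and 943.9 in Control 90 days, against 2407.9, 1798.3 and 2969.2 in Control 60 days (log2 difference -1.81 ± 0.42, SE; limma adjusted p = 0.0309). Os9, a lectin that marks misfolded glycoproteins for export from the endoplasmic reticulum, fell by 1.26 on the log2 scale, and Esyt3, which tethers that organelle to the cell membrane, fell by 2.55. Zmiz2, a coactivator of transcription, had 6.6, 23.7 and 7.7 in Control 90 days, against 125.7, 88.6 and 151.7 in Control 60 days (log2 difference -3.48 ± 0.69, SE; limma adjusted p = 0.0111). Wdr55, a WD repeat protein, Capn15, of the calpain family, Ctc1, of a complex at telomeres, and Sycp1, known from meiotic chromosomes, fell, with log2 differences of -2.94, -1.43, -2.60 and -3.56. Mndal, of the interferon-inducible p200 family, had 1.6, 12.7 and 1.7 in Control 90 days, against 37.2, 34.3 and 59.5 in Control 60 days, and was the 1 of 22 interferon and antigen presentation genes that fell (4.55%).

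Acta2 and Tpm2 fell, and most markers of blood vessels lay below 0. Acta2, the actin of smooth muscle and pericytes, had 95.2, 248.2 and 125.4 in Control 90 days, against 744.4, 300.6 and 717 in Control 60 days, and fell by 1.92 on the log2 scale (SE 0.40; limma adjusted p = 0.0156). Tpm2, a tropomyosin of muscle, had 156.8, 214.9 and 109.7 in Control 90 days, against 468.2, 381.2 and 601.3 in Control 60 days, and fell by 1.62 (SE 0.34; limma adjusted p = 0.0172). Genes of contractile proteins did not all move this way. Myl12b, a myosin regulatory light chain singled out after its values were seen, had 3486.4, 3050.3 and 2409.2 in Control 90 days, against 1437.2, 1422.8 and 1052.4 in Control 60 days, without overlap, and rose by 1.19 ± 0.28 (log2, SE; limma adjusted p = 0.0309). Of 13 tested endothelial and mural markers 12 lay below 0, 1 of them (Acta2) past the threshold (7.69%), and the median was -1.079. This median was -0.854 with centred arrays, -0.826 with quantile normalization, -0.58 with 16 added to every signal and -1.708 without Control 90 days replicate 2. The summed signal of these markers ran from 2041.8 to 2758.7 in Control 90 days and from 2633.9 to 3667 in Control 60 days, which overlap.

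Markers of other cell types were read in the same way. Microglia and macrophage markers had 0 of 16 past the threshold, a median of -0.452 and summed signals of 1549 to 2404.9 in Control 90 days and 2277.3 to 4257.6 in Control 60 days. Aif1, a defining microglial marker, did not pass the filter on low signals. Blood cell markers had 0 of 6 past the threshold and a median of -0.777, and their summed signals did not overlap, at 291.1 to 487.6 in Control 90 days and 691.1 to 864.6 in Control 60 days. Astrocyte markers had 0 of 17 and a median of -0.360, oligodendrocyte markers 0 of 14 and a median of -0.027, and interneuron markers 0 of 13 and a median of -0.243. In the 5 lists together 0 genes passed. In that order 3, 2, 1, 0 and 0 had an unadjusted p below 0.05, beside 1524 of all 10051 genes. These medians moved with the settings: that of microglia was -0.136 without Control 90 days replicate 1 and -0.018 with the 18S level as a covariate, that of astrocytes ran from -0.794 to -0.135, that of oligodendrocytes from -0.659 to 0.197, that of interneurons from -0.355 to 0.084 and that of blood cells from -1.192 to -0.501. The part of these cells in the differences above was not tested. Motor neuron identity genes had 0 of 20 past the threshold, 10 above 0 and 3 with an unadjusted p below 0.05, and their median of -0.040 became 0.185 with centred arrays.

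G93A animals of the same ages, measured on other arrays, lay in the same direction for most of these genes. In G93A 90 minus 60 days 0 of 16565 probe sets passed (0%, limma), and 909 had an unadjusted p below 0.05. With array weights, 17 passed. Of the 132 genes that rose in controls 112 lay above 0 in G93A animals, with a median log2 difference of 0.497 in G93A animals beside 2.074 in controls. Of all 10051 genes, 4707 lay above 0 in G93A animals, and 6106 had the same sign in both genotypes. The G93A groups did not overlap for 34 of the 132 with higher values at 90 days, beside 704 of all 10051 genes (7.00%). They did not overlap for 2 of the 132 with lower values, beside 685 of all 10051 genes. Of the 21 genes that fell in controls 17 lay below 0 in G93A animals, with a median of -0.503 beside -2.358. The larger size in controls describes the genes chosen, since they were chosen for it. The 18S level was 7.78, 8.79 and 8.37 in G93A 90 days, against 8.49, 10.15 and 10.74 in G93A 60 days, which overlap. Hybridization controls were at 8.99, 9.33 and 8.96 in G93A 90 days, against 7.75, 9.99 and 10.68 in G93A 60 days. The part of such array measures in the shared direction was not tested.

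The test of the difference between the 2 genotypes' changes passed the threshold for 0 of 16565 probe sets (0%, limma), and 886 had an unadjusted p below 0.05. The smallest adjusted p was that of Ephb3. Its signals in G93A animals were 95.8, 56.3 and 62.2 at 90 days, against 104.8, 118.6 and 147.6 at 60 days, opposite to the controls and without overlap (limma adjusted p of the difference between genotypes 0.0988). Dcun1d5 had 202.7, 182.9 and 232.7 in G93A 90 days, against 88.1, 76 and 52.4 in G93A 60 days, in the same direction as the controls and without overlap. Mrps14, a mitochondrial ribosomal protein, had 288.1, 477.9 and 421.3 in Control 90 days, against 97.4, 163 and 140.4 in Control 60 days. In G93A animals it had 1523.9, 454.6 and 975 at 90 days, against 405.1, 234.6 and 128.5 at 60 days, a log2 difference of 1.93 in G93A animals beside 1.57 in controls. Etnk1 overlapped between the G93A ages, with 656.5, 620 and 570.2 at 90 days, against 1121.7, 295.6 and 154.1 at 60 days. Wdr55 and Zmiz2, which fell in controls, had log2 differences of 0.04 and 0.23 in G93A animals, where the ages overlapped.

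**Figure D4:**
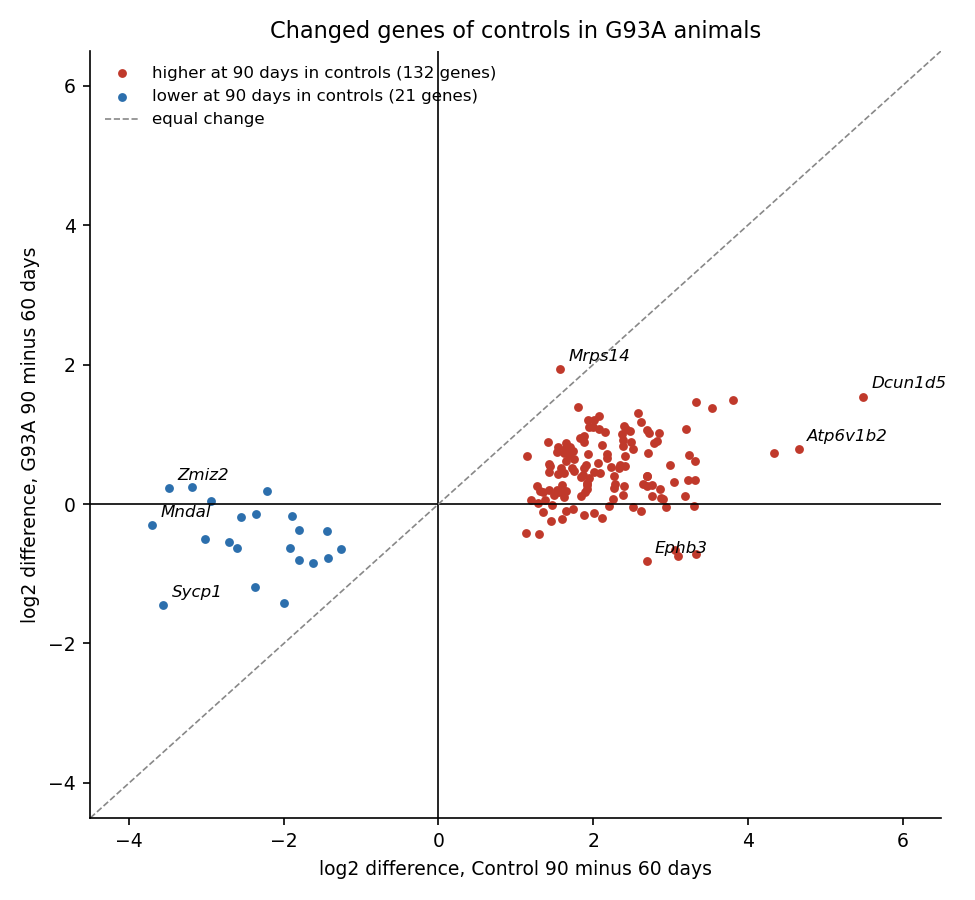
Log2 difference of G93A 90 minus 60 days (vertical axis) against that of Control 90 minus 60 days (horizontal axis) for the 132 genes that rose and the 21 that fell in controls, with the dashed line where both are equal. Most red points lie right of and below the line with small positive G93A values, Ephb3 lies below 0 at -0.82, and Mrps14 lies above the line.

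Across all 6 groups the genes that rose in controls were at their lowest in Control 60 days. Their median log2 level was 6.83 in Control 60 days, 8.60 in Control 90 days and 8.38 in Control 120 days, and 8.27, 8.80 and 7.46 in G93A animals of 60, 90 and 120 days. By array it was 8.77, 8.87 and 8.50 in Control 90 days, against 7.20, 6.85 and 6.44 in Control 60 days, and the 3 Control 60 days arrays lay below all the other 15. For all genes the medians lay between 6.06 and 6.38 in the 6 groups. The genes that fell had a median of 7.63 in Control 60 days, 5.01 in Control 90 days and 7.20 in Control 120 days, and 6.92, 6.55 and 6.96 in G93A animals of 60, 90 and 120 days. On the 3 Control 90 days arrays it was 4.53, 6.37 and 5.35. Since the genes were chosen for the gap between these control groups, the gap is a description. The same choice favours extreme values in both control groups, so their place against the other 4 groups is a description too. The other 4 groups entered the filter on low signals and the estimate of the spread.

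**Figure D5:**
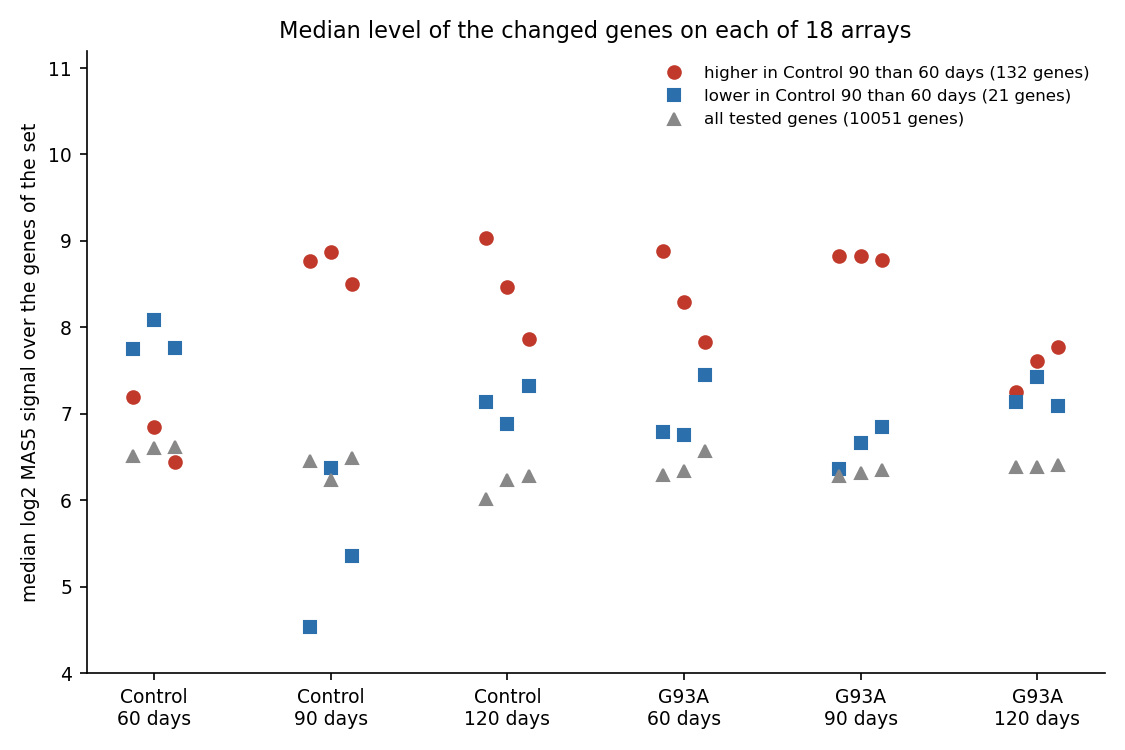
Median log2 MAS5 signal of the 132 genes that rose (circles), the 21 that fell (squares) and all 10051 tested genes (triangles) on each of the 18 arrays, with 3 arrays per group and ages from 60 to 120 days within controls and then G93A animals. The circles of Control 60 days, at 6.44 to 7.20, lie below those of every other group, and the squares of Control 90 days include the lowest values of any group.

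The genomic span of the genes that rose, 20.6 kb in the median, differed little from that of all genes at 21.4 kb and of the genes that fell at 21.3 kb. Several had further probe sets on the array: 73 of the 132 genes had 140 others. Of these 86 differed in the same direction and the rest did not, where 45.8% of all genes lay above 0. The threshold was passed by 10 of the 140, all in the same direction, beside 1.36% of all tested probe sets. For the genes that fell, 10 of 21 had 19 others, of which 14 differed in the same direction. Of the 19, 1 passed in that direction, beside 0.248% of all tested probe sets, and 1 passed in the opposite one. Beside the genes already marked, at least 1 other probe set differed in the opposite direction for Ndn, Crbn, Dnajb1, Dlst, Ube2d3, Derl1, Sod2, Hmgn3, Rab14, Cdc42, Capn15, Slc25a5, Mrpl51 and Mrpl11, and for Dnajb1, Dlst, Hmgn3, Mrpl51 and Mrpl11 all others did. Single members of further lists also rose: Dhcr7 was 1 of 27 genes of cholesterol and lipid synthesis (3.70%), Etnk1 was 1 of 18 of phospholipid head group synthesis (5.56%), and Phkb, a subunit of the kinase that starts glycogen breakdown, was 1 of 14 of glycogen metabolism (7.14%). Phkb passed narrowly (limma adjusted p = 0.0494), and 24 of 30 alternatives ended its call.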

How the data were processed

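One-colour arrays, 1 per animal, were read as the deposited intensity of each probe set, a linear value that the authors obtained from MAS5, as stated per the submitters' processing notes. No version or setting of MAS5 is named in the sources used here. The trimmed mean of every array lay between 100.04 and 100.06, so arrays had been scaled. Signals under 1 were set to 1 (965 of 408420) and put on the log2 scale with no further normalization. Of 22690 probe sets, 64 controls were left out, and 16565 whose signal exceeded the array median in at least 3 of 18 arrays were tested. Limma 3.58.1 in R 4.3.3 fitted 6 group means over all 18 arrays with a trend in the variance and 12 residual degrees of freedom, and p-values were adjusted (Benjamini-Hochberg) over all probe sets. The threshold for a change was an adjusted p of 0.05. The labels give no more on replicates than separate animals, and 3 arrays a group limit the precision.

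Names come from the platform annotation where it pairs a probe set with 1 symbol (20380, while 691 have several and 1555 none), and the tested probe set with the highest mean stands for its gene. The 15 genes of smallest p per direction among those that passed without overlap are named, with up to 4 members of smallest p in each of 40 lists (7 of them cell type markers) and a few fixed genes. Ubqln2, Slc25a5, Slc25a3, Grpel1, Slc12a5 and Myl12b were chosen after their values were seen. Members, lists and rules were chosen with earlier results of these data known, and lists carry no test. The script was tested on simulated data. Array measures were compared by exact permutation over 20 splits. Same-numbered control arrays of the 2 ages did not deviate together (r = -0.04, -0.053 and -0.01), and the main fit used no pairing by number. These values cannot exclude that numbers pair animals. Promoters are from RefSeq (GRCm38.p6). Alternatives changed the scaling, filter, pseudocount (16), arrays and covariates.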

Additional observations from a re-analysis of the deposited data

How the results depend on the processing

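The count of 266 changed probe sets (225 higher, 41 lower) moved to 117 with only the groups compared, 51 with the 9 control arrays, 28 without the variance trend, 32 with the hybridization-control level as a covariate and 13 with the 18S rRNA level as a covariate, an alternative chosen after seeing the data. It ranged from 26 to 339 when single arrays were left out. With the replicate number as a block it was 260 (226 higher, 34 lower), of which 237 were among the 266. Centred arrays, quantile normalization, a pseudocount of 16, other filters, array weights and the Gapdh ratio as a covariate gave 200 to 351. The median log2 difference of the changed probe sets that lay higher was 2.011 in the report, 1.633 with the hybridization-control level and 1.698 with the 18S level as a covariate, and for those that lay lower -2.548, -2.715 and -2.475. The test between genotypes gave 0 in most alternatives and 1 with quantile normalization, with array weights, and without Control 60 days replicate 1 or 2. The G93A change gave 17 with array weights and 0 otherwise.

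Some differences changed sign: Sod1 to -0.3032 with the hybridization-control level and -0.121 with the 18S level, Nefl to 0.509 (quantile), 0.4011 (hybridization control), 0.2312 (18S) and 0.2054 (without Control 90 days replicate 2), and Mbp to 0.01601 (centred), 0.2064 (quantile) and 0.08154 (without Control 90 days replicate 3). With single arrays left out, Nefl ranged from -0.5065 to 0.2054, Mbp from -0.3727 to 0.08154, Tac1 (1.223 with all arrays) from -0.2908 (without Control 60 days replicate 2) to 1.997, Slc17a6 (-1.012 with all arrays) from -1.933 to 0.4849 (without Control 90 days replicate 1) and the Gapdh ratio from -0.574 to 0.2775, with 0.03589 without Control 60 days replicate 3. Over all named genes and alternatives of the control change, 5179 calls were as in the report, 709 lost significance, 97 gained it and 11 changed sign. The 5179 include genes that did not pass and stayed so, and alternatives that cannot move a difference. They thus do not measure how stable the changed genes were, of which 5 of 132 and 0 of 21 passed in every alternative. The causes of these changes between alternatives were not tested. Low signals limit the folds: 16 of the 132 genes that rose had a geometric mean under 16 in Control 60 days.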
